A study of Bos taurus with 6 samples.

Results

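The transcripts of 10 pluripotency factors of the inner cell mass were examined in bovine blastocysts: NANOG, POU5F1, SOX2, KLF4, KLF17, SALL4, ESRRB, PRDM14, DPPA3 and GDF3. They were taken by gene symbol from the deposited expression table, and all 10 were found, each under 1 Ensembl identifier, among 36075 listed genes. The blastocysts were produced in vitro from oocytes of slaughterhouse ovaries. In the MT group the oocytes were matured for 22 h with 1e-07 mol/L melatonin (MT), the pineal hormone and antioxidant, and in the control group without it, and fertilization and embryo culture followed without a further stated difference. Each group had 3 libraries, and the study's methods describe each library as a pool of 3 blastocysts and the libraries of a group as coming from separate production runs, within which all treatments were carried out side by side. The concentration, duration and pool size are given in those methods, whereas the sample labels give the group and a replicate number.

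The blastocyst is the first mammalian stage with separate lineages. Its outer layer, the trophectoderm, forms the fetal part of the placenta, and its inner cell mass gives rise to the epiblast, from which the embryo proper grows, and to the hypoblast, which lines the yolk sac. NANOG, SOX2 and POU5F1 (also called OCT4) are the core transcription factors that keep epiblast cells pluripotent, and they bind many of the same regulatory sites. In cattle, POU5F1 transcripts and protein persist in the trophectoderm at the blastocyst stage, while SOX2 and NANOG mark the inner cells. Since blastocysts were pooled with no stated separation of the inner cells, fewer inner cells in an embryo and less transcript in each inner cell cannot be told apart.

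Expression was given as TPM, a unit of transcript abundance in which the reads of a gene are divided by its length and scaled by library, so that levels of different genes can be set side by side. The listed values summed to 936780 to 937700 in the control libraries and to 912690 to 913710 in the MT-treated libraries. TPM does not keep the read counts, so the depth behind each value cannot be read from it. The study reports sequencing depth per replicate in its supplement, which was not used here. The p-values measure the spread between these libraries. Among genes at 20 TPM or more in all 6, the median coefficient of variation (SD over mean) was 2.07% in control and 2.56% in MT-treated libraries. Whether so small a spread covers the variation between production runs was not tested. A difference was tested across the 11953 genes with at least 1 TPM in at least 3 libraries, on the log2(TPM + 1) scale with limma and Benjamini-Hochberg adjustment, and was called when the adjusted p-value was under 0.05. Log2 fold changes are differences of group means on this scale, MT-treated minus control, with the standard error (SE). All 10 factors reached this level, NANOG and SOX2 through their MT-treated libraries alone. The groups were far apart across the whole transcriptome. Of the genes tested, 95.7% were called, 61.6% as higher and 34.1% as lower in MT-treated blastocysts, and the values of the groups did not overlap for 96.1%. With a further condition of a 2-fold difference, 51.0% were higher and 19.6% lower. After quantile normalization, which forces 1 shared distribution on all libraries, 5550 genes were higher and 5311 lower, in place of 7367 and 4071. Control libraries had 8854 to 8953 genes above 0 and MT-treated libraries had 14372 to 14408. Across the tested genes, Pearson's r between libraries of log2(TPM + 1) lay between 0.991 and 0.999 within a group and between 0.544 and 0.546 across the groups. When libraries were centred on their median over the 5988 genes present at 1 TPM or more in all 6 libraries, a shift of -0.48 (log2, MT-treated minus control) was removed, and such a shift bears on each value below. No label gives a sequencing batch, and a batch that coincided with the groups cannot be told apart from treatment.

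Of the 10 factors, 7 were called, beside 95.7% of all genes tested. KLF4 rose in MT-treated blastocysts, KLF17, GDF3, SALL4 and DPPA3 fell, and POU5F1, ESRRB and PRDM14 did not pass the test. NANOG and SOX2 were called higher against control values listed at or next to 0, and both entered the test through their MT-treated values alone. Of the factors called higher, KLF4 passed 2-fold in TPM + 1. NANOG and SOX2, at or next to 0 in control, passed it with a fold whose size was set by the pseudocount. Over all genes tested, 51.0% were called higher by at least 2-fold. KLF17, GDF3 and SALL4 among the 4 that fell passed 2-fold, beside 19.6% of all genes tested. The values of the groups did not overlap for the 7 called factors, beside 96.1% of all genes tested. The median log2 fold change of the 10 factors was -0.04, beside 1.12 over all tested genes, of which 33.8% were listed at 0 in every control library. The median over all genes depended on the setting, at 0.04 after quantile normalization, 0.59 with a minimum of 5 TPM and -0.19 for genes above 0 in all 6 libraries. That of the factors was computed on the deposited scale only, so its value of -0.04 has its counterpart in 1.12 and not in these 3 medians. Together the 10 factors took 0.0685% to 0.0698% of the listed TPM in the control libraries and 0.0557% to 0.0564% in the MT-treated libraries.

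**Figure D1:**
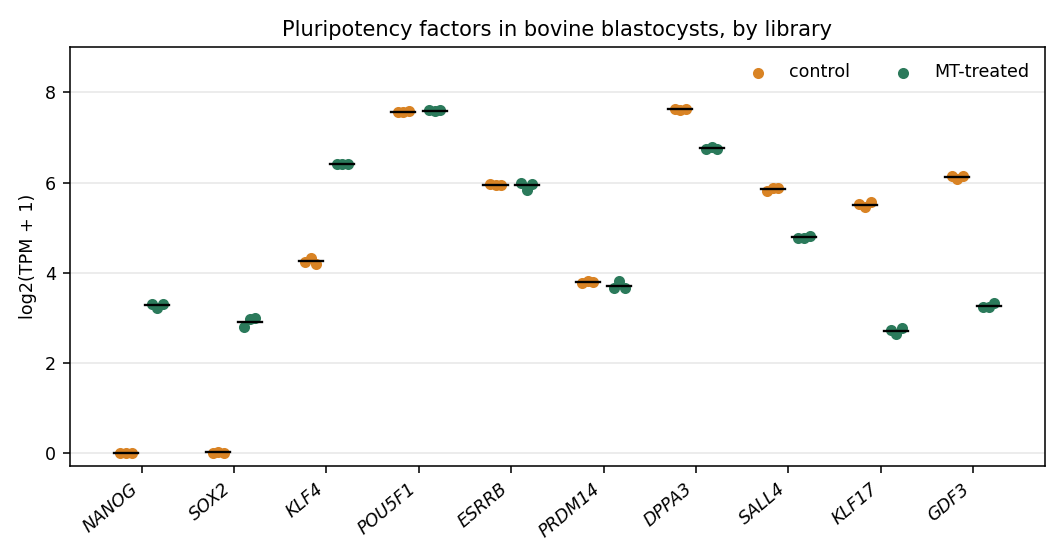
Level of each factor as log2(TPM + 1), with 1 point per library (3 control, 3 MT-treated) and a black line at the group mean. NANOG and SOX2 lie at or next to 0 in the control libraries, KLF4 is higher and KLF17 and GDF3 are lower in every MT-treated library, and the points of POU5F1, ESRRB and PRDM14 overlap between the groups.

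The core factors differed from each other. POU5F1 (ENSBTAG00000021111) measured 189.8, 188 and 191 TPM in control and 193, 191 and 194 TPM after MT. The ranges overlapped, and the spread within a group was under 1% of the mean in both. The log2 fold change was 0.02 (SE 0.02, limma adjusted p = 0.223), with a 95% interval from -0.02 to 0.06, so that on the deposited scale a change in TPM + 1 of more than 1.04-fold upward or below 0.988 of the control lay outside the interval. That interval covers the spread between libraries and not the choice of scale. With the listed TPM rescaled to a common total per library the log2 fold change was 0.06 (limma adjusted p = 0.00961), after quantile normalization it was 0.24 (limma adjusted p = 1.14e-05) and after median centring it was 0.50 (limma adjusted p = 1.19e-07).

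NANOG (ENSBTAG00000020916), the homeobox factor that marks the epiblast, was listed at 0 in all 3 control libraries and measured 8.93, 8.23 and 8.88 TPM after MT. It was called higher (limma adjusted p = 2.61e-09). As it entered the test through its MT-treated values alone, this p-value adds little to the listed values. Since its control values were 0, its fitted log2 fold change was set by the pseudocount, at 3.27 with 1 and 6.46 with 0.1, and does not measure a fold. SOX2 (ENSBTAG00000063362), an HMG box factor that pairs with POU5F1 on DNA, measured 0, 0.02 and 0 TPM in control and 5.88, 6.80 and 6.95 TPM after MT. Its log2 fold change of 2.90 (SE 0.06, limma adjusted p = 2.91e-08) was set largely by the pseudocount and became 5.96 with a pseudocount of 0.1. SOX2 likewise entered the test through its MT-treated values alone, and its p-value has the same limit. After quantile normalization, which lifts the many tied zeros of the control libraries to a shared value above 0, the log2 fold change was 0.52 for NANOG (limma adjusted p = 2.92e-06) and 0.14 for SOX2, which was then no longer called (limma adjusted p = 0.467).

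A value of 0 was common in the control libraries among genes at this level in MT-treated blastocysts. Over all tested genes, 4037 were listed at 0 in every control library and 360 in every MT-treated library. Of the 1831 tested genes with a mean of 5 to 10 TPM in MT-treated blastocysts, 911 (49.8%) were listed at 0 in all 3 control libraries, as NANOG was, and 959 (52.4%) had at most 0.02 TPM in each of them, as SOX2 had. Genes that every cell uses were among the zeros. Of 89 tested genes for subunits of the RNA polymerases, the proteasome and the mediator complex, 17 were at 0 in every control library and 1 was at 0 in every MT-treated library. A 0 for NANOG or SOX2 is therefore reported as a listed value, and whether the transcript was absent, not captured or not counted was not tested.

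The genes most like each core factor were sought among tested genes with a symbol by the Euclidean distance between their 6 values of log2(TPM + 1). Closest to NANOG were PDE12, NLRX1 and SLC16A14, each at 0 in the 3 control libraries and between 8.07 and 9.01 TPM in the MT-treated libraries, at distances of 0.0284 to 0.0322. A further measure of how common this pattern was is that 1169 genes lay within a distance of 1 of NANOG and 996 within that distance of SOX2. Closest to SOX2 were ATPSCKMT, TMEM186 and RAB17, also at 0 in every control library. Closest to POU5F1, which had 201 genes within a distance of 1, were NIFK, SPCS3 and ATIC. NIFK, a nucleolar protein, measured 196, 191 and 193 TPM in control and 198, 199.7 and 196 TPM after MT.

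KLF4 and KLF17 are Krüppel-like zinc finger factors that accompany the naive state of pluripotency, KLF4 best known from mouse cells and reprogramming and KLF17 from the human epiblast. They moved in opposite directions. KLF4 (ENSBTAG00000020355) measured 17.7, 19.2 and 17.3 TPM in control and 84.0, 83.7 and 83.6 TPM after MT. Every MT-treated value lay far above every control value, with a log2 fold change of 2.15 (SE 0.04, limma adjusted p = 1.67e-08), or 4.45-fold on the TPM + 1 scale. KLF17 (ENSBTAG00000047871) measured 44.9, 42.7 and 46.2 TPM in control and 5.57, 5.18 and 5.83 TPM after MT. It fell by 2.80 on the log2 scale (SE 0.05, limma adjusted p = 1.40e-08), or 6.99-fold on the TPM + 1 scale. Hence KLF17 was the more abundant of the pair in all 3 control libraries and KLF4 in all 3 MT-treated libraries. Both calls and both directions held under every alternative run, with log2 fold changes of 2.13 to 2.63 for KLF4 and -4.02 to -2.33 for KLF17.

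Of 17 listed genes of the Krüppel-like family, 11 were tested, of which 6 were higher and 5 lower, where 61.6% and 34.1% of all tested genes were. KLF5, a further factor of early embryos, had 43.3 to 44.9 TPM in control and 47.8 to 49.3 TPM after MT, with a log2 fold change of 0.14. KLF6, the most abundant of the family in control blastocysts, had 112 to 121 TPM there and 48.7 to 53.6 TPM after MT. KLF7, KLF8, KLF13 and KLF2 were at 0 in every control library. KLF4 and KLF17 are included in these counts. These relatives, like those of SALL4 and ESRRB below, were looked up after the values had been seen.

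GDF3, DPPA3 and SALL4 fell. GDF3 (ENSBTAG00000023192), a secreted ligand of the TGF-beta superfamily that is made by pluripotent cells and acts with NODAL, measured 69.8, 66.3 and 70.2 TPM in control and 8.44, 8.36 and 8.95 TPM after MT. It fell by 2.86 on the log2 scale (SE 0.04, limma adjusted p = 4.04e-09), 7.28-fold on the TPM + 1 scale, and 5.94% of the tested genes had a log2 fold change as low or lower. DPPA3 (ENSBTAG00000046609), also known as STELLA, protects the maternal genome from losing DNA methylation after fertilization and is carried over from the oocyte. It measured 197, 194 and 198 TPM in control and 107, 110.2 and 106 TPM after MT, and fell by 0.86 on the log2 scale (SE 0.02, limma adjusted p = 6.00e-08). SALL4 (ENSBTAG00000003101), a zinc finger factor that binds with POU5F1 and NANOG, measured 55.0, 57.5 and 57.9 TPM in control and 26.5, 26.3 and 27.0 TPM after MT, and fell by 1.07 on the log2 scale (SE 0.03, limma adjusted p = 1.06e-07). All 3 falls stayed called and kept their direction under every alternative run. The size depended on the scale, since median centring brought the log2 fold change to -0.38 for DPPA3 and to -0.59 for SALL4. For GDF3 it was -2.38 after median centring and -4.34 after quantile normalization.

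The relatives of these genes also varied. SALL2 measured 50.6, 55.8 and 59.7 TPM in control and was listed at 0 in every MT-treated library, while SALL1 was at 0 in the control libraries and had 1.59 to 2.30 TPM after MT, and SALL3 was at 0 in all 6 libraries. DPPA4, which acts with DPPA2 in embryonic chromatin, had 26.7 to 28.0 TPM in control and 14.3 to 14.7 TPM after MT, with a log2 fold change of -0.86. DPPA2 went the other way, with 119.7 to 122.8 TPM in control and 133 to 138 TPM after MT. GDF15, the other tested gene of the GDF group, had 15.1 to 16.3 TPM in control blastocysts and 0 in every MT-treated library.

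ESRRB and PRDM14 did not pass the test. ESRRB (ENSBTAG00000012285), an orphan nuclear receptor that supports naive pluripotency in the mouse, measured 61.7, 60.4 and 60.4 TPM in control and 62.8, 56.3 and 61.9 TPM after MT. The second MT-treated library was below all control libraries and the other two were above them, so the groups overlapped. The log2 fold change was -0.01 (SE 0.05, limma adjusted p = 0.770), with a 95% interval from -0.13 to 0.10. PRDM14 (ENSBTAG00000000060), a PR domain factor of naive and germ cells, measured 12.57, 13.03 and 12.79 TPM in control and 11.72, 12.98 and 11.61 TPM after MT, a log2 fold change of -0.08 (SE 0.05, limma adjusted p = 0.177) with a 95% interval from -0.20 to 0.04. MT-treated replicate 2 decided both values in part. Without it PRDM14 was called lower, at -0.12 (limma adjusted p = 0.0104), and ESRRB stood at 0.03 and was not called (limma adjusted p = 0.177).

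Neither result was independent of scale. Median centring gave 0.47 for ESRRB (limma adjusted p = 6.88e-05) and 0.40 for PRDM14 (limma adjusted p = 0.000264), whereas quantile normalization gave 0.29 for ESRRB (limma adjusted p = 0.00131) and -1.64 for PRDM14 (limma adjusted p = 7.90e-05). A difference as small as that of PRDM14 or smaller was found for 322 tested genes, or 2.69%, and 4.31% of the tested genes were not called. Of the related receptors, ESRRG was close in level to ESRRB, with 75.7 to 81.0 TPM in control and 65.9 to 70.7 TPM in MT-treated blastocysts, and ESRRA had 0.07 to 0.16 TPM in control and 2.79 to 3.45 TPM in MT-treated blastocysts.

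**Figure D2:**
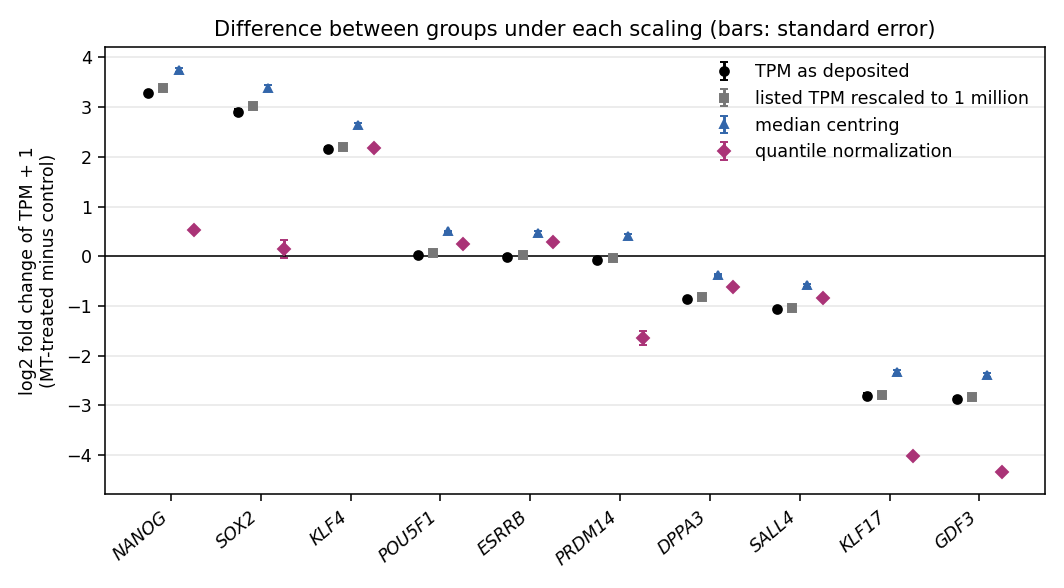
Log2 fold change of TPM + 1 (MT-treated minus control) of each factor from limma, on TPM as deposited and under 3 other scalings, with bars for the standard error. KLF4 and NANOG stay above 0 and DPPA3, SALL4, KLF17 and GDF3 below 0 throughout, SOX2 is above 0 except after quantile normalization, where its bar crosses 0, and POU5F1, ESRRB and PRDM14 shift with the scaling.

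The order of the factors by TPM changed between the groups. In control blastocysts DPPA3 was first with 196 ± 1.90 TPM (SD, n = 3) and POU5F1 second with 189.8 ± 1.49 TPM (SD, n = 3), without overlap of their ranges. GDF3, ESRRB, SALL4, KLF17, KLF4 and PRDM14 followed, with no overlap between neighbours, and SOX2 and NANOG came last and overlapped. In MT-treated blastocysts POU5F1 was first with 193 ± 1.83 TPM (SD, n = 3), followed by DPPA3, KLF4, ESRRB, SALL4, PRDM14, NANOG, GDF3, SOX2 and KLF17. NANOG with 8.68 ± 0.391 TPM (SD, n = 3) and GDF3 with 8.58 ± 0.320 TPM (SD, n = 3) overlapped there, and all other neighbours were apart.

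A rank within the library does not depend on a scaling factor, though it moves with how many genes are detected. POU5F1 exceeded 90.7% to 90.8% of the detected genes in each control library and 95.1% to 95.2% in each MT-treated library. Of the 8 factors detected in all 6 libraries, KLF4 moved most, from 46.7% to 49.0% in the control libraries to 89.8% in each MT-treated library. GDF3 dropped from 75.9% to 77.2% in control to 44.6% to 45.9% after MT, and KLF17 from a median of 66.6% to one of 37.1%. DPPA3, whose TPM fell, had median ranks of 91.1% in control and 91.8% after MT, and SALL4, whose TPM also fell, of 72.4% and 72.9%. The longer list of detected genes in the MT-treated libraries bears on each rank, and POU5F1 moved up at nearly constant TPM, so a like rank does not show a like level. ESRRB and PRDM14, whose TPM was not called different, had higher ranks in MT-treated blastocysts, with medians of 86.8% against 73.7% for ESRRB and 52.4% against 43.1% for PRDM14. With genes under 1 TPM left out the mean rank of KLF4 went from 32.0% to 87.2% and that of GDF3 from 69.6% to 30.8%. NANOG exceeded 44.2% to 45.9% and SOX2 37.9% to 41.0% of the detected genes in the MT-treated libraries.

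**Figure D3:**
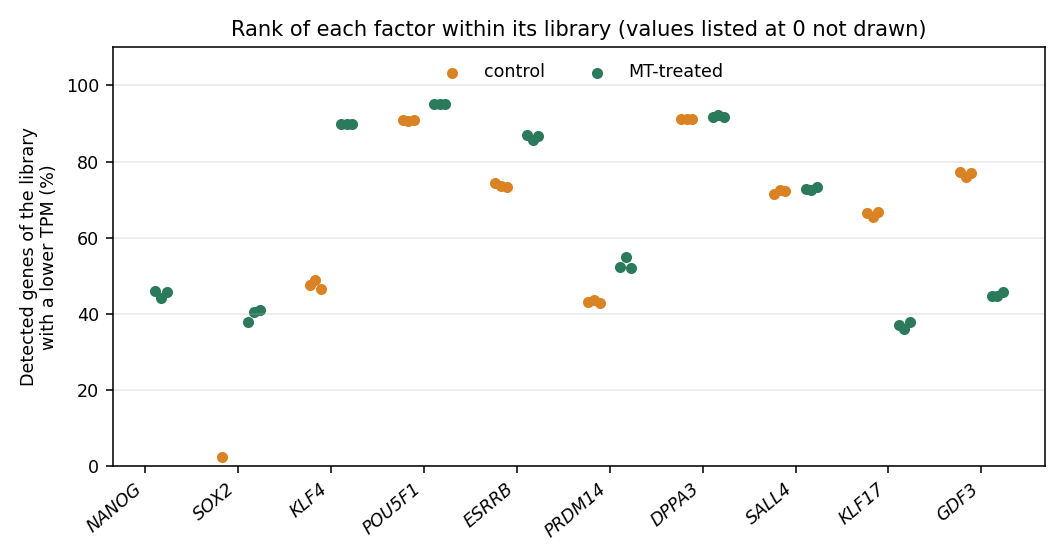
Percentage of the detected genes of a library that have a lower TPM than the factor, with 1 point per library. KLF4 climbs from below 50% to 89.8%, GDF3 and KLF17 drop, POU5F1, ESRRB and PRDM14 are higher after MT, where more genes were detected, and values listed at 0 (NANOG in every control library, SOX2 in 2 of them) are not drawn.

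Ratios within a library were compared for 7 pairs of genes, as log2((a + 1)/(b + 1)) with exact two-sided permutation tests over libraries. With 3 libraries against 3 the smallest possible p-value is 0.1, and every pair reached it (adjusted p = 0.1 over the 7 pairs, exact permutation test), so none could pass 0.05. In each pair at least 1 gene was at or under 0.44 TPM in the control libraries, and the control ratio thus reflects the pseudocount. NANOG over POU5F1 went from -7.58 ± 0.01 to -4.32 ± 0.05 and SOX2 over POU5F1 from -7.57 ± 0.03 to -4.68 ± 0.12 (SD, n = 3 each). In MT-treated blastocysts, where both genes were present, NANOG over SOX2 stood at 0.36 ± 0.15 (SD, n = 3), with NANOG above SOX2 in 3 of 3 libraries. POU5F1 over CDX2, a ratio of a pluripotency factor to the main trophectoderm regulator, was 3.50 ± 0.08 in MT-treated blastocysts and POU5F1 over GATA6 was 2.55 ± 0.05 (SD, n = 3 each), against 7.58 ± 0.01 and 7.17 ± 0.14 in control blastocysts. SOX2 over CDX2 changed from 0.01 ± 0.02 to -1.18 ± 0.20 and NANOG over GATA6 from -0.40 ± 0.13 to -1.77 ± 0.08 (SD, n = 3 each), the last of which changed sign as a difference with a pseudocount of 0.1.

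The chromosomal position of the factors was looked up in RefSeq (assembly ARS-UCD2.0), where all 10 were found, for the order of genes only. GDF3, DPPA3 and NANOG are neighbours among protein-coding genes with a name, between APOBEC1, an RNA and DNA cytidine deaminase, and SLC2A3, a glucose transporter. GDF3, DPPA3 and SLC2A3 fell, SLC2A3 from 254 to 256 TPM in control to 166 to 169 TPM in MT-treated blastocysts (log2 fold change -0.60, limma adjusted p = 7.02e-08). NANOG was listed at 0 in all 3 control libraries, and APOBEC1 was also at 0 throughout the control group and reached 2.35 to 2.92 TPM after MT. Of the 16 genes next to the factors that are not factors themselves, 10 were tested, of which 8 were higher and 2 lower, beside 61.6% and 34.1% of all tested genes. Next to POU5F1, TCF19 was at 0 throughout the control group and reached 8.63 to 8.84 TPM after MT. Next to PRDM14, NCOA2, a coactivator of nuclear receptors, had 140.4 to 152 TPM in control and 13.9 to 15.0 TPM in MT-treated blastocysts. On both sides of SOX2 the neighbours were present in the control libraries, ATP11B at 13.9 to 14.3 TPM and DNAJC19 at 120.3 to 125 TPM. Both were called higher after MT, at 29.8 to 32.2 TPM for ATP11B and 175 to 188 TPM for DNAJC19.

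**Figure D4:**
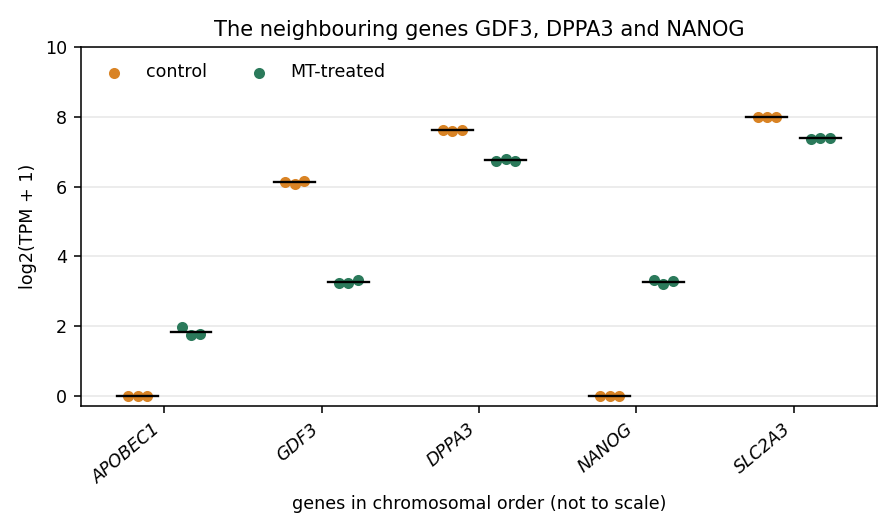
Level as log2(TPM + 1) of the neighbouring genes GDF3, DPPA3 and NANOG and of the named protein-coding gene on either side, in chromosomal order, with 1 point per library and a black line at the group mean. GDF3, DPPA3 and SLC2A3 are lower in MT-treated blastocysts, and NANOG and APOBEC1 are listed at 0 in every control library.

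Other genes of the pluripotency network were read from lists written from general knowledge, and are described by counts and medians beside those of all tested genes, without a test of the list. Of 21 other pluripotency transcription factors, 12 genes were tested, of which 9 were higher and 3 lower, beside 61.6% and 34.1% of all tested genes, and the median log2 fold change was 1.15, beside 1.12 over all tested genes. OTX2, a factor of the later epiblast, was at 0 throughout the control group and reached 34.6, 33.3 and 35.6 TPM in the MT-treated libraries. ETV5 was at 0 as well and spread widely after MT, with 12.59, 23.99 and 36.98 TPM. SOX15 rose from between 3.20 and 3.73 TPM to between 19.96 and 20.88 TPM. TCF7L1, a repressor at WNT target genes that restrains the pluripotency network, measured 98.8, 97.2 and 96.2 TPM in control and 28.6, 29.4 and 28.6 TPM after MT. MYCN and ZFP42 (REX1) also fell, with log2 fold changes of -0.80 and -0.43. After quantile normalization 5 genes of this list were higher and 7 lower. TFCP2L1, NR5A2, NR0B1 and FOXD3 were among the 7 rows of this list that were at 0 in all 6 libraries.

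Of 18 other pluripotency markers, 11 genes were tested, with 7 higher and 4 lower, shares close to the 61.6% and 34.1% of all tested genes, and a median log2 fold change of 0.24, beside 1.12 over all tested genes. Quantile normalization left 5 higher and 4 lower, and among genes above 0 in all 6 libraries 4 were higher and 4 lower. LIN28A, an RNA-binding protein that blocks the maturation of let-7, was at 0 throughout the control group and reached 14.9 to 15.2 TPM in the MT-treated libraries, and LIN28B had 1.02 to 1.32 TPM in control and 0.34 to 0.49 TPM after MT. TRIM71, a further RNA-binding protein of early development, rose from 3.31 to 3.63 TPM to between 22.6 and 27.9 TPM, and FBXO15 was at 0 in every control library. DNMT3B, a DNA methyltransferase, had 30.4 to 32.2 TPM in control and 17.8 to 19.1 TPM in MT-treated blastocysts.

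GDF3 signals as NODAL does, through activin receptors and SMAD2 or SMAD3 with SMAD4. Of 18 genes listed for this pathway, 8 were tested, of which 7 were higher and 1 lower, beside 61.6% and 34.1% of all tested genes. The median log2 fold change was 2.60, beside 1.12 over all tested genes, and 4 of the 8 were at 0 in every control library, beside 33.8%. NODAL itself reached 9.64, 8.35 and 9.56 TPM and SMAD2 12.9, 14.2 and 12.5 TPM after MT, and both were at 0 in every control library, as was PCSK6, a convertase that cleaves the NODAL precursor. SMAD4 fell from 50.6, 53.2 and 55.0 TPM to 22.8, 23.1 and 22.5 TPM. After quantile normalization 5 genes of the pathway were higher and 3 lower. The receptor genes ACVR1B, ACVR1C and ACVR2A and the ligand genes GDF1 and LEFTY2 were at 0 in all 6 libraries. ACVR2B, the other receptor gene of the list, had 2.37 to 2.82 TPM in control and 8.35 to 9.43 TPM after MT.

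In LIF and IL6 receptor signalling, which acts through JAK kinases and STAT3, 8 of 13 genes were tested, with 3 higher and 5 lower (61.6% and 34.1% over all tested genes) and a median log2 fold change of -0.53, again beside 1.12. The cytokine IL6 measured 0.04, 0 and 0 TPM in control and 49.2, 52.8 and 48.4 TPM after MT, and JAK2 and PIAS3 were at 0 in every control library. The receptor genes that were tested, IL6R and IL6ST, went the other way. IL6R fell from 56.6, 56.2 and 58.3 TPM to 15.1, 15.6 and 16.5 TPM (log2 fold change -1.79), and its signalling partner IL6ST fell by 1.14 on the log2 scale. JAK1 fell by 0.83 on the same scale. LIF and the receptor genes LIFR and IL11RA were at 0 in all 6 libraries. Median centring left 3 genes higher and 3 lower (8412 and 3038 over all tested genes), and quantile normalization 1 higher and 6 lower (5550 and 5311). With genes at 5 TPM or more, 1 was higher.

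FGF4 signalling drives inner cells toward the hypoblast. Of 18 genes listed, 14 were tested, with 7 higher and 6 lower (61.6% and 34.1% over all tested genes) and a median log2 fold change of 0.09, beside 1.12 over all tested genes. The median over all genes was 0.04 after quantile normalization, for which that of the list was not computed. FGF4 itself was at 0 in all 6 libraries, and FGF2, FGFR1 and SPRY2 were at 0 in every control library, with 22.9 to 26.6 TPM for FGF2 after MT. DUSP6, a phosphatase induced by ERK activity, fell from 43.1, 46.6 and 45.0 TPM to 0.56, 0.89 and 0.83 TPM (log2 fold change -4.71, limma adjusted p = 1.14e-08). HRAS, a GTPase of the pathway, fell by 0.60 on the log2 scale. The balance of the list turned with the setting, as did that of all tested genes. Median centring gave 9 higher and 2 lower, beside 8412 and 3038 over all tested genes. Quantile normalization gave 5 and 8, beside 5550 and 5311. Keeping only genes above 0 in all 6 libraries gave 2 and 6, beside 2814 and 3626.

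Of 24 genes for proteins that bind or modify the factors or act beside them on chromatin, 22 were tested, of which 14 were higher and 7 lower, beside 61.6% and 34.1% of all tested genes, with a median log2 fold change of 1.27. Quantile normalization left 11 higher and 10 lower, and among genes above 0 in all 6 libraries 8 were higher and 7 lower. SMARCA4, the ATPase of the BAF complex, and MBD3, of the NuRD complex, were at 0 throughout the control group and reached 34.2 to 35.2 TPM and 22.8 to 26.0 TPM after MT. NCOA3, a coactivator of ESRRB, had at most 0.01 TPM in the control libraries and 22.5 to 25.3 TPM after MT. The acetyltransferase EP300 fell from between 34.2 and 35.2 TPM to between 7.63 and 8.14 TPM. EZH2, of the Polycomb complex, and TET1, which oxidizes methylcytosine, also fell, with log2 fold changes of -1.78 and -1.24.

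**Figure D5:**
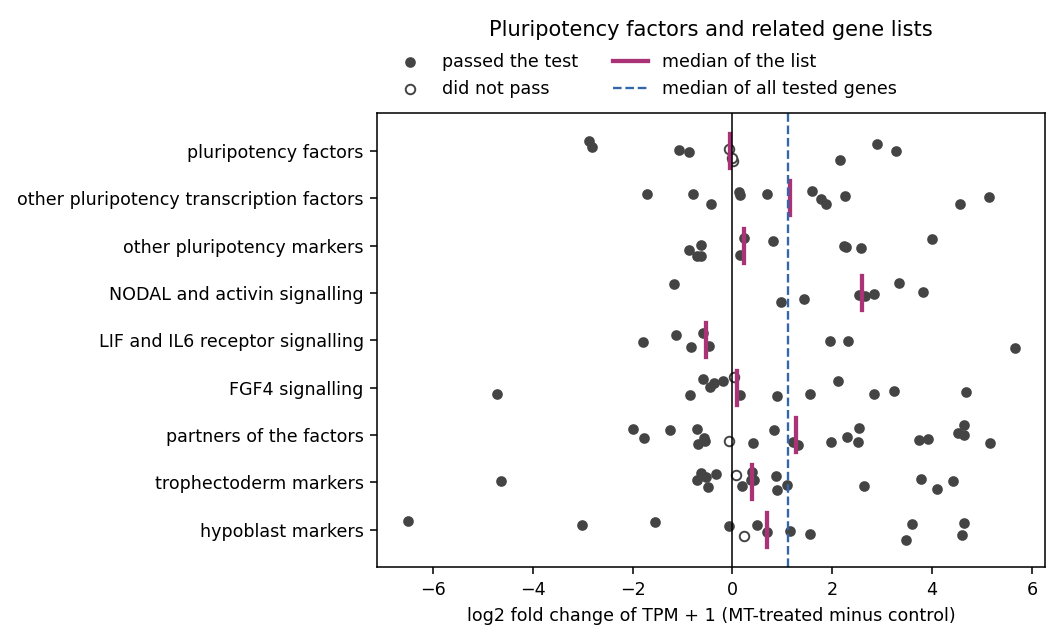
Log2 fold change of TPM + 1 (MT-treated minus control) of each tested gene in the 10 pluripotency factors and in 8 related lists, with filled points for genes that passed the limma test, open points for those that did not, a bar at the median of each list and a dashed line at the median of all tested genes, 1.12. Among the factors the lowest point is GDF3 at -2.86, the highest is NANOG, whose control values were 0, and the 3 open points lie near 0.

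Markers of the other lineages were measured beside the factors. Of 22 trophectoderm markers, 18 were tested, with 11 higher (61.1%) and 6 lower (33.3%), close to the 61.6% and 34.1% of all tested genes, and a median log2 fold change of 0.39, beside 1.12. Their summed TPM, 15861 to 16211 in the control libraries and 13887 to 14252 in the MT-treated libraries, rested on a few abundant keratins and ATP1B3. KRT8 fell from between 8541 and 8828 TPM to between 6756 and 7009.6 TPM, KRT18 rose from between 2726 and 2791 TPM to between 3586 and 3694 TPM, and without KRT8, left out after its values were seen, the sums were 7321 to 7395 and 7131 to 7265. CDX2 and ELF5 were at 0 in every control library, and KRT7 was at most 0.06 TPM there. CDX2 had 17.2, 15.0 and 16.1 TPM after MT. GATA3 was present in both groups, with 18.4 to 20.3 TPM in control and 36.2 to 37.1 TPM after MT (log2 fold change 0.88, limma adjusted p = 1.64e-06), and TFAP2A fell from between 31.5 and 38.9 TPM to between 0.46 and 0.55 TPM. IFNT and ATP1B3 fell by 0.72 and 0.62 on the log2 scale. EOMES and HAND1 were at 0 in all 6 libraries.

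Of 18 hypoblast markers, 13 were tested, with 8 higher (61.5%) and 4 lower (30.8%), near the same background of 61.6% and 34.1%, and a median log2 fold change of 0.70, beside 1.12. Their summed TPM was 2251 to 2274 in the control libraries and 1801 to 1811 in the MT-treated libraries, a fall that rested on LAMC1. Without this gene, left out after its values were seen, the sum was higher after MT, at 1795 to 1806 against 1627 to 1638. GATA6 measured 0.34, 0.44 and 0.20 TPM in control and 30.8, 32.1 and 33.1 TPM after MT, and PDGFRA was at 0 throughout the control group and reached 22.5 to 24.2 TPM after MT. LAMA1 had at most 0.14 TPM in control and 12.6 to 12.8 TPM after MT. LAMC1, a laminin chain of basement membranes, fell from 636, 624 and 642 TPM to 5.91, 5.78 and 6.33 TPM, and NID2 and SPARC fell by 3.02 and 1.55 on the log2 scale. SOX17 had at most 0.20 TPM in any library and was not tested, and GATA4 and FOXA2 were at 0 in all 6 libraries. Other hypoblast genes were abundant in control, such as CTSV at 1158 to 1160.4 TPM. The part of the zeros of the control libraries in the results for NANOG and SOX2 was not tested.

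Markers of other cells that may travel with an embryo were mostly at or near 0. Of 13 genes of cumulus and granulosa cells, CYP11A1 and FSHR were tested. CYP11A1 had 77.6 to 79.6 TPM in control and 80.9 to 84.1 TPM in MT-treated blastocysts, FSHR had 17.2 to 19.2 and 15.0 to 17.1 TPM, and FOXL2, INHA, HAS2 and PTX3 were at 0 in all 6 libraries. Of 16 maternal oocyte transcripts, 2 were tested and 11 were at 0 in all 6 libraries, among them GDF9 and ZP3. BTG4 was at 0 throughout the control group and reached 15.0 to 15.5 TPM after MT, and OOEP fell from between 45.6 and 49.3 TPM to between 20.5 and 22.5 TPM, next to the fall of DPPA3, which is also carried over from the oocyte. The part of maternal transcripts in the level of DPPA3 was not tested.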

How the data were processed

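RNA from pools of 3 bovine blastocysts was sequenced in 3 control and 3 MT-treated libraries. The deposited table gives TPM for each gene in each library, with 2 decimals. The authors cleaned the reads with fastp, aligned them with STAR and counted them with featureCounts. The methods give the build ARS-UCD1.3 and the submitters' processing notes ARS-UCD1.2. The methods name Smart-seq2 and the labels a TruSeq kit. How counts became TPM is not given in the sources used here. TPM holds no counts, so depth and counting error cannot be derived.

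Genes reaching 1 TPM in 3 or more libraries entered a limma fit on log2(TPM + 1) with moderation along the mean-variance trend (limma 3.58.1, R 4.3.3) and Benjamini-Hochberg adjustment over 11953 genes. Ratios, ranks and distances came from scipy 1.17.1, numpy 2.4.6 and pandas 2.3.3 under Python 3.11.15, and figures from matplotlib 3.10.9. The fit was also run on simulated normal values around the control means, with few genes changed. That setting lacks the wide difference between the groups seen here, so it does not vouch for the fit on these data. Left-out libraries were fitted on the same genes.

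Genes named were the 10 factors, CDX2, GATA3, GATA6 and SOX17, up to 3 rises and 3 falls per list among called genes without overlap, and the 3 genes nearest to POU5F1, NANOG and SOX2. Family relatives, chromosomal neighbours, genes listed at 0, the receptor gene ACVR2B and the abundant markers KRT8, KRT18 and CTSV were added after their values were seen. The factors, lists and tests were chosen with earlier results of these data known. Lists came from general knowledge. Alternatives were a pseudocount of 0.1, other filters (1 of them, genes above 0 in all 6 libraries, chosen after seeing the data), 3 scalings, genes with a symbol, 2 other moderations, a replicate block and each library left out.

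Sequences of the genes are not used here, and 1 gene that the naming rule picked is not reported here.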

Additional observations from a re-analysis of the deposited data

How the results depend on the processing

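Over all tested genes, 7367 were higher and 4071 lower, and the count of higher genes moved by more than 1.5 times only with genes above 0 in all 6 libraries (2814 higher, 3626 lower). That restriction was chosen after seeing the data and removes genes at 0 in control, NANOG and SOX2 among them, so that 1 of the 10 factors was higher, in place of 3. With median centring 6 factors were higher, and over all tested genes 8412 were higher and 3038 lower. The number of lower factors was 4 or 5 under every alternative run. ESRRB changed sign with quantile normalization (0.29), median centring (0.47) and rescaled TPM (0.0227), and its log2 fold change lay between -0.0438 and 0.0343 with 1 library left out, the highest value being that without MT-treated replicate 2. PRDM14 was called lower without that library. PRDM14 changed sign with median centring (0.40). The difference in NANOG over GATA6 changed sign with a pseudocount of 0.1, to 0.18 (exact permutation p = 0.6), since both genes were near 0 in control.

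By the study's methods control and MT were run side by side in each production run, but the labels do not say that a replicate number marks the same run in both groups. Deviations of same-numbered libraries from their group means correlated at -0.01, -0.00068 and 0.06 across genes, so the numbers were not taken as pairs. With the replicate block, 7379 genes were higher and 4082 lower, and the same 7 factors were called. Leaving out 1 library gave 7319 to 7338 higher and 4004 to 4049 lower genes. All 36 ranks recomputed among genes with a symbol or at 1 TPM or more moved beyond the spread between libraries, each to a lower value. Of the list counts under the alternatives, 310 stayed within 1.5 times and 30 did not. The 3 genes nearest to SOX2 were replaced under both other distances, while those nearest to POU5F1 and NANOG were kept.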
